A study of Mus musculus with 26 samples.

Results

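Gene expression in the lacrimal gland was compared between 12 and 4 weeks of age in C57BL/6.NOD-Aec1Aec2 mice, all male, on 6 arrays at 12 weeks and 4 arrays at 4 weeks out of the 26 arrays of the series. Arrays were placed in a group by the age in their titles, and each gene was read by 1 probe set, the one with the highest mean among those naming that gene alone, which gave 18194 genes. The strain is C57BL/6 with a pair of regions bred in from the NOD mouse, Idd3 on chromosome 3 (called Aec1) and Idd5 on chromosome 1 (called Aec2), and both age groups carry both regions. It develops a disease like Sjögren's syndrome, and the study's design places 4 weeks before disease and 12 weeks at the first entry of leukocytes into the gland. No other strain was analysed here, so growth of a young gland and onset of disease cannot be told apart, and the sources used here do not say whether a replicate is 1 mouse or several pooled. P-values therefore measure the spread between these samples.

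The lacrimal gland makes the watery layer of the tear film. Its acinar cells secrete enzymes and antibacterial proteins, and plasma cells between the acini make IgA, which epithelial cells carry into the tears. Macrophages and dendritic cells in the gland take up proteins, cut them with cathepsins and show the peptides to CD4+ T cells on MHC class II molecules, a route in which the invariant chain Cd74 guards the empty class II groove.

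Values are log2 expression, and array medians lay between 2.94 and 3.22. A mean under 4.04 is called near background, and a difference from or to such a mean is a lower bound. Acinar markers were high at both ages. The secretory-cell transcription factor Bhlha15 averaged 12.26 at 12 weeks and 11.98 at 4 weeks, and the tear peroxidase Lpo averaged 14.24 at 12 weeks and 13.97 at 4 weeks. Correlations between arrays were 0.954 to 0.986 within 12 weeks, 0.953 to 0.982 within 4 weeks and 0.926 to 0.969 between the ages. Within an array, log2 values had an SD of 2.15 ± 0.13 (SD, n = 6) at 12 weeks and 1.95 ± 0.13 (n = 4) at 4 weeks (two-sided exact permutation p = 0.0429). The 3' minus 5' difference of the actin controls, which widens as RNA degrades, was 3.69 ± 0.52 at 12 weeks and 2.90 ± 0.92 at 4 weeks (exact permutation p = 0.119). The same difference for Gapdh was 1.80 ± 0.41 at 12 weeks and 1.62 ± 1.63 at 4 weeks (exact permutation p = 0.767). The part of these measures in the results was not tested.

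Markers of neighbouring tissues differed between arrays, and their source was not tested. The mean of 12 salivary gland genes was 9.83 to 12.21 on the 12 week arrays, and 12.91, 6.94, 8.46 and 10.70 on 4 weeks replicates 1 to 4. The mean of 8 adipocyte genes was 4.16 to 6.82 at 12 weeks, highest on replicate 1, against 3.78 to 4.47 at 4 weeks. None of the genes on either list passed the test. With both means as covariates, 158 genes changed, of which 156 were among those called without them.

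Of 12377 genes above the array median on at least 4 arrays, 335 (2.71%) changed between the ages, 267 higher (2.16%) and 68 lower (0.549%) at 12 weeks. Counts of calls per gene list, given below, stand beside these shares. The test was limma over all 26 arrays at a Benjamini-Hochberg adjusted p under 0.05, and 2695 genes had an unadjusted p under 0.05. The higher genes reached 8-fold in 37 cases and the lower genes in 1. Expression did not overlap between the groups for 208 of the higher and 35 of the lower genes, beside 4.99% and 2.77% of all genes above or below. The median difference over all genes was 0.09 log2 units. Higher genes made up 79.7% of the calls, 64.2% after quantile normalization and 53.6% with array spread as a covariate. Leaving out a pair of arrays of later ages that stood apart, 16 weeks replicate 4 and 20 weeks replicate 1, gave 1493 calls that included all 335. Fitting only the 10 arrays of both ages gave 495 calls, of which 210 were among the 335. Single arrays moved the count from 123 (without 4 weeks replicate 2) to 709 (without 12 weeks replicate 1), and of 76 called genes picked by name, not all of them described, 44 kept their call without any 1 of the 10 arrays. The 4 week arrays were not alike. Replicate 1, with the highest salivary gland mean, was the highest of the 4 arrays for 143 of the 267 higher genes (3785 of 12377 over all genes) and the lowest for 38 of the 68 lower genes (4169 of 12377). Its actin difference was 4.10, against 1.87 to 2.87 on the other 4 week arrays, and its Gapdh difference 3.83, against -0.08 to 1.52, and their part in the results was not tested.

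**Figure D1:**
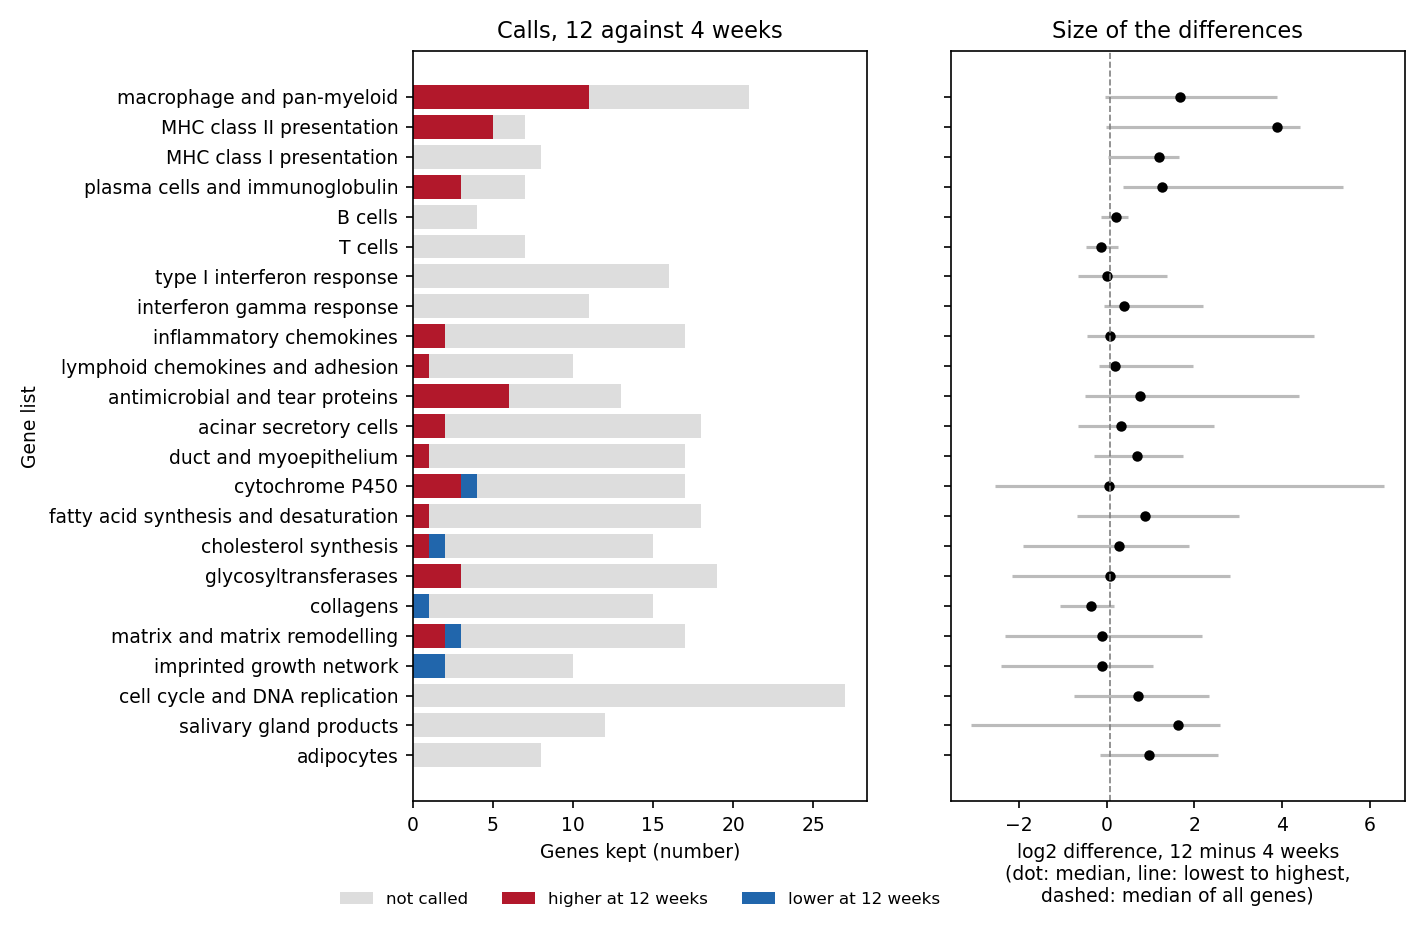
Gene lists compared between 12 and 4 weeks. Left, bars give the number of genes kept in each list, split into genes higher at 12 weeks, lower at 12 weeks and not called. Right, dots give the median log2 difference (12 minus 4 weeks), grey lines the lowest and highest gene, and the dashed line the median of all genes (0.09). Of the macrophage list 11 of 21 genes and of the MHC class II list 5 of 7 genes were higher, against 2.16% of all genes. No gene kept on the T cell, B cell or interferon response lists was called. Near background at both ages were 6 of 7 T cell and 3 of 4 B cell genes. For type I interferon it was 9 of 16 and for interferon gamma 4 of 11, so a change in them could be missed.

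MHC class II genes, which present antigen, were among those that rose most. Of 7 genes kept on that list, 5 were higher at 12 weeks (2.16% over all genes) and none lower, with a median difference of 3.87. The 5 were Cd74, the class II chains H2-Aa, H2-Ab1 and H2-Eb1, and Ctss, the cathepsin that trims the invariant chain. In whole tissue, more cells of a type and more RNA per cell cannot be told apart.

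RefSeq promoter windows (GRCm38.p6) were matched for 3 of these 5 genes, and those of a pair of class II chains that rose together are shown. Class II promoters are known for a conserved block before the start site that ends in a Y box, a CCAAT read in reverse. The sequences are the 150 bases before the start site, 5′ to 3′ on the gene's strand, with CCAAT or its reverse complement ATTGG in capitals. H2-Aa is at chr17:34287824-34287973, minus strand, and H2-Eb1 at chr17:34305717-34305866, plus strand.
H2-Aa: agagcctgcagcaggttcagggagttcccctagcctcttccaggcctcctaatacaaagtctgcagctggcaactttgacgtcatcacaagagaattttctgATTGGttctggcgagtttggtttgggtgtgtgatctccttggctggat
H2-Eb1: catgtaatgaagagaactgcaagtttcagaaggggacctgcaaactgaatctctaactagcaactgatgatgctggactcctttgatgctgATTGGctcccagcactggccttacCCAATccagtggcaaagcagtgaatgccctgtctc
The H2-Aa window held 1 match, starting at base -48, and the H2-Eb1 window held 2, starting at -59 and -35. The window of Ctss, the other gene matched, held none, and neither did those of H2-DMa, which was not called. Of all 32851 promoter windows of this length, 24.5% held a match, so the letters alone do not set these genes apart.

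H2-Aa was between 11.49 and 12.29 at 12 weeks (median 11.90), against 8.42, 7.84, 8.27 and 7.46 on the 4 week arrays. H2-Eb1 was between 8.88 and 9.69 (median 9.30) at 12 weeks, against 5.51, 4.57, 4.81 and 5.11 at 4 weeks. Cd74 was between 11.08 and 12.08 (median 11.30) at 12 weeks, against 7.53, 7.15, 6.31 and 7.01 at 4 weeks. The ages did not overlap for any of these genes, and the highest Cd74 value belonged to 12 weeks replicate 4. The differences were 3.88 ± 0.65 (SE) for H2-Aa (14.7-fold, limma adjusted p = 0.00149), 4.30 ± 0.70 for H2-Eb1 (19.7-fold, 0.00128) and 4.40 ± 0.84 for Cd74 (21.1-fold, 0.00585). H2-Ab1 rose by 3.87 ± 0.51 (14.6-fold, adjusted p = 0.000151), and by 2.59 as the mean of its 3 probe sets. Ctss rose by 2.60 ± 0.52 (6.08-fold, 0.00816), with values of 9.61 to 10.43 at 12 weeks and 8.22, 7.20, 6.59 and 7.55 at 4 weeks. The other 2 genes kept, H2-DMa and H2-DMb2, load peptide onto class II and averaged 2.46 and 4.20 at 12 weeks against 2.09 and 4.22 at 4 weeks. H2-DMa was near background at both ages and H2-DMb2 just above that limit, so a change in them could be missed. Class I genes, which show peptides from inside the cell to CD8+ T cells, had a median difference of 1.20 over 8 genes (0.80 after quantile normalization and 0.58 with array spread as a covariate) without a call. Their closest member, H2-D1, averaged 11.73 ± 0.41 at 12 weeks and 10.09 ± 0.61 at 4 weeks (1.64 ± 0.52, adjusted p = 0.0879), read by a probe set open to cross-hybridisation with other class I genes.

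Macrophage and general myeloid genes rose in 11 of 21 cases (2.16% over all genes) and fell in none, with a median difference of 1.68. The list mean was 5.88 to 6.64 on the 12 week arrays and 4.40 to 4.92 on the 4 week arrays. The calls covered all 3 chains of complement C1q, which macrophages make, the macrophage lysozyme Lyz2, the pore-forming Mpeg1, the receptor for macrophage growth factor Csf1r, and Ptprc, the CD45 phosphatase of all leukocytes.

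C1qa was between 7.53 and 8.16 (median 7.83) at 12 weeks, against 4.43, 4.62, 3.21 and 5.23 at 4 weeks. Lyz2 was between 9.93 and 11.22 (median 10.81) at 12 weeks, against 7.74, 7.49, 5.73 and 7.70 at 4 weeks. Ptprc was between 5.26 and 8.67 (median 6.64) at 12 weeks, against 3.19, 3.04, 2.24 and 2.98 at 4 weeks. Neither C1qa, Lyz2 nor Ptprc overlapped between the ages, 4 weeks replicate 3 was lowest for all 3, and the Ptprc value of 12 weeks replicate 4 stood above its other arrays. C1qa rose by 3.48 ± 0.68 (11.2-fold, adjusted p = 0.00643), C1qb by 2.42 ± 0.47 (0.00651) and C1qc, near background at 4 weeks, by at least 3.04 ± 0.55 (0.00381). Lyz2 rose by 3.57 ± 0.52 (11.8-fold, 0.00046) and Mpeg1 by 1.97 ± 0.32 (3.92-fold, 0.00136). Ptprc, near background at 4 weeks, rose by at least 3.89 ± 0.63 (14.8-fold, 0.00128), or by 1.90 as the mean of its 2 probe sets.

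Smaller or less stable calls completed the list. Csf1r rose by 1.68 ± 0.39 (adjusted p = 0.0223) and by 0.97 as the mean of its 3 probe sets (not called, 0.0616). Its call was also lost after quantile normalization (1.08, 0.0838), with the replicate block (0.0544), with array spread (0.0573) or the tissue means (0.077) as covariates, and without 4 weeks replicate 2 (0.0591) or 4 (0.0797). Tyrobp, a signalling adaptor of myeloid receptors, rose by 2.29 ± 0.50 (0.0142) and lost its call without 4 weeks replicate 3 (0.0706) or 4 (0.0511). Cd53 (at least 2.40 ± 0.61, near background at 4 weeks) and Cybb (1.22 ± 0.33, near background at both ages) lost theirs without any of several single arrays (adjusted p up to 0.116 and 0.111). Laptm5, a lysosomal protein of blood cells, rose by 3.58 ± 0.73 through a probe set that can bind related transcripts, but with such probe sets left out it was -0.75 (adjusted p = 0.261), and its call was lost without 4 weeks replicate 3 (0.0506). Markers often used to count macrophages were not called. Cd68 was 4.62 ± 1.15 at 12 weeks and 2.42 ± 0.03 at 4 weeks (2.20 ± 0.64, adjusted p = 0.0644), and Adgre1, the F4/80 antigen, was 7.58 ± 0.33 at 12 weeks and 6.97 ± 0.48 at 4 weeks (0.62 ± 0.44, adjusted p = 0.382). Dendritic cell genes had a median difference of 0.17 with none of 5 called, and granulocyte and mast cell genes -0.01 with none of 5 called. In these lists 3 and 4 genes were near background at both ages, so a change in them could be missed.

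**Figure D2:**
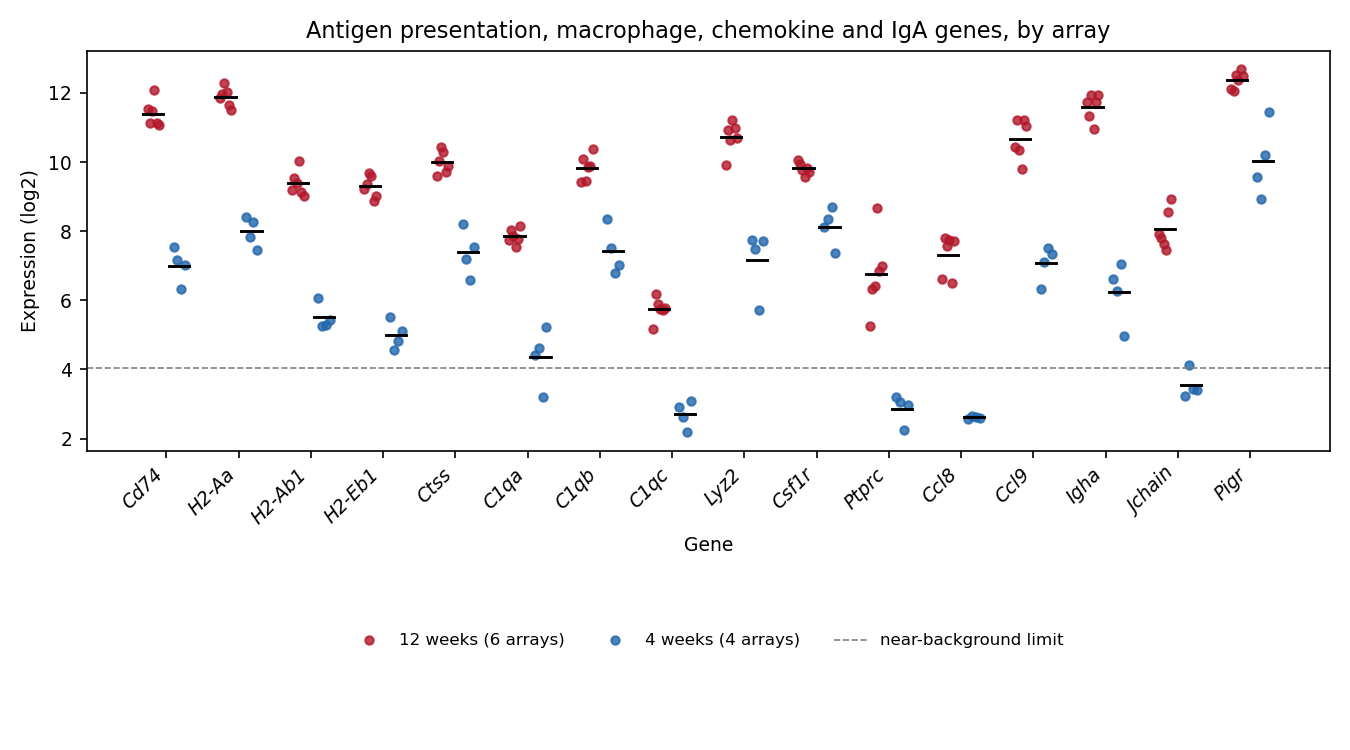
Expression (log2) of 16 immune and IgA genes on each array, with 12 weeks (red, 6 arrays) left of 4 weeks (blue, 4 arrays) and a black line at each mean. The ages did not overlap for any of the 16 genes, and Ccl8, Ptprc, C1qc and Jchain had means under the near-background limit of 4.04 (dashed) at 4 weeks.

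A pair of the 17 inflammatory chemokines rose, both ligands that draw monocytes, while the list had a median of 0.08. Of the 17, 8 were near background at both ages. Ccl8 was between 6.49 and 7.82 (median 7.64) at 12 weeks, against 2.58, 2.66, 2.61 and 2.60 at 4 weeks. Ccl9 was between 9.80 and 11.22 (median 10.74) at 12 weeks, against 6.33, 7.10, 7.51 and 7.35 at 4 weeks. For both chemokines the groups did not overlap. Ccl8 rose by at least 4.71 ± 0.88 (26.2-fold, adjusted p = 0.00496) and Ccl9 by 3.60 ± 0.51 (12.2-fold, 0.000383). Of 10 lymphoid chemokine and adhesion genes, 6 were near background at both ages. The 1 that rose was Vcam1, by which endothelium holds passing leukocytes. Near background at 4 weeks (3.34 to 3.71), it rose by at least 1.98 ± 0.48 (adjusted p = 0.0287). Its highest value was 6.82 on 12 weeks replicate 4, without which the call was lost (1.72, adjusted p = 0.074), as it was without any of 5 other arrays (up to 0.0888). Averaged over its 3 probe sets, the difference was 0.55. The B cell attractant Cxcl13 averaged 5.94 ± 0.41 at 12 weeks and 5.87 ± 0.04 at 4 weeks (0.06 ± 0.17, adjusted p = 0.826). No gene was called among 11 cytokines and receptors (median -0.14), 16 type I interferon response genes (0.01), 11 interferon gamma response genes (0.40) or 10 complement genes other than C1q (0.33). In these lists 8, 9, 4 and 6 genes, in that order, were near background at both ages, so a change in them could be missed. The interferon gamma list mean was 4.36 to 5.29 on the 12 week arrays and 3.95 to 4.35 on the 4 week arrays. The nearest to a call among interferon gamma genes was Gbp2, an interferon-induced GTPase, at 6.84 ± 1.02 at 12 weeks and 4.64 ± 0.70 at 4 weeks (2.20 ± 0.62, adjusted p = 0.0578).

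Genes of the IgA pathway rose together, from the heavy chain to the receptor that exports it. On the list of plasma cell and immunoglobulin genes 3 of 7 were higher and all 7 differences were positive (6 after quantile normalization and 5 with array spread as a covariate), with a median of 1.26, against 0.69 and 0.62 under those scalings. These 7 were the genes kept of 12 with a probe set. Below the filter, Mzb1, Prdm1, Tnfrsf17 and Irf4 were at most 2.89 on the 10 arrays. Pou2af1, also below it, was 6.55 on 12 weeks replicate 4 and 2.70 to 2.92 on the other 9 arrays. Igha, the constant region of IgA, was between 10.95 and 11.94 (median 11.73) at 12 weeks, against 6.63, 6.26, 7.06 and 4.96 at 4 weeks. Jchain, which joins IgA into dimers, was between 7.46 and 8.93 (median 7.86) at 12 weeks, against 3.22, 4.13, 3.44 and 3.41 at 4 weeks. Pigr, the epithelial receptor that carries dimeric IgA into secretions, was between 12.07 and 12.69 (median 12.42) at 12 weeks, against 9.57, 8.93, 10.21 and 11.45 at 4 weeks. The ages did not overlap for Igha, Jchain or Pigr, though 4 weeks replicate 4 had the lowest Igha and the highest Pigr of its age.

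Igha rose by 5.37 ± 0.60 (41.5-fold, adjusted p = 1.38e-05), Jchain by at least 4.50 ± 0.64 (22.7-fold, 0.000394) and Pigr by 2.34 ± 0.44 (5.05-fold, 0.00541). Igkv8-30, a kappa light chain variable segment read by a probe set open to cross-hybridisation with other segments, rose by at least 4.97 ± 0.64 (31.4-fold, 0.000122). Fcgbp, a mucus protein that binds the Fc part of IgG, rose by 3.92 ± 0.74 (15.1-fold, 0.00545). The heavy chain of IgM was not called. Ighm averaged 4.15 ± 0.77 at 12 weeks and 3.73 ± 0.15 at 4 weeks (adjusted p = 0.598), with its highest value, 5.47, on 12 weeks replicate 4. Sdc1, a plasma cell surface marker that epithelium also makes, averaged 8.19 ± 0.66 at 12 weeks and 6.93 ± 0.51 at 4 weeks (1.26 ± 0.47, adjusted p = 0.138). Xbp1, the transcription factor of secretory cells, was high at both ages (12.45 ± 0.10 at 12 weeks and 11.93 ± 0.36 at 4 weeks, adjusted p = 0.713).

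B cell genes stood apart on 1 array, 12 weeks replicate 4. Only 4 of the 12 B cell genes with a probe set were above the array median on at least 4 arrays, none of these was called, and their median difference was 0.23. Of these 4, 3 were near background at both ages, so a change in them could be missed. The other 8, Cd79a, Cd79b and Fcmr among them, did not pass that filter. Cd79a, a signalling chain of the B cell receptor, was 6.67 on 12 weeks replicate 4 and 2.59 to 2.82 on the other 9 arrays. Its partner Cd79b was 5.65 on that array and 2.54 to 2.73 on the other 9 arrays. Fcmr, the Fc receptor for IgM on B cells, was 5.54 there and 2.06 to 2.22 elsewhere. Ms4a1, the CD20 antigen, was 7.02 on that array, against 3.94 to 4.56 on the other 9.

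Of the 12 B cell genes, 8 were highest on 12 weeks replicate 4, and 7 of the 12 were above the near-background limit there, against 0 to 2 on the other 5 arrays at 12 weeks and 0 to 1 on the 4 arrays at 4 weeks. The exceptions, Cd22, Pax5, Cxcr5 and Ebf1, were highest on 4 weeks replicate 3. The mean of the 12 was 4.36 on replicate 4, and 2.64 to 2.89 on the other 12 week arrays against 2.73 to 2.91 on the 4 week arrays. The same array had the highest Cd52 (9.44), Ptprc (8.67), Vcam1 (6.82) and Cxcl13 (6.77) of its age. It also had the highest salivary gland mean of its age (12.21). Without it, 170 genes were called between 12 and 4 weeks, 168 of them among the 335. Fewer T cell genes were high on that array. Cd3d, a chain of the T cell receptor complex, was 4.63 there and 2.06 to 2.26 on the other 9 arrays, and Lat, an adaptor of that receptor, was 5.72 there and at most 3.88 elsewhere. Of 16 T cell genes 4 were highest on that array and 9 on 4 weeks replicate 3, which had the highest array median of the 10 (3.15). On 12 weeks replicate 4, 2 of the 16 were above the near-background limit, against 0 or 1 on each other array. The mean of 16 T cell genes was 2.74 to 3.18 at 12 weeks, highest on replicate 4, against 2.89 to 3.04 at 4 weeks, and none of the 7 tested was called (median -0.12). Of these 7, 6 were near background at both ages, so a change in them could be missed. Cd3e, another chain of that complex, was 3.05 ± 0.09 at 12 weeks and 3.31 ± 0.19 at 4 weeks, near background at both ages (adjusted p = 0.117). Of 11 NK and cytotoxic genes, none was above the near-background limit on any of the 10 arrays.

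**Figure D3:**
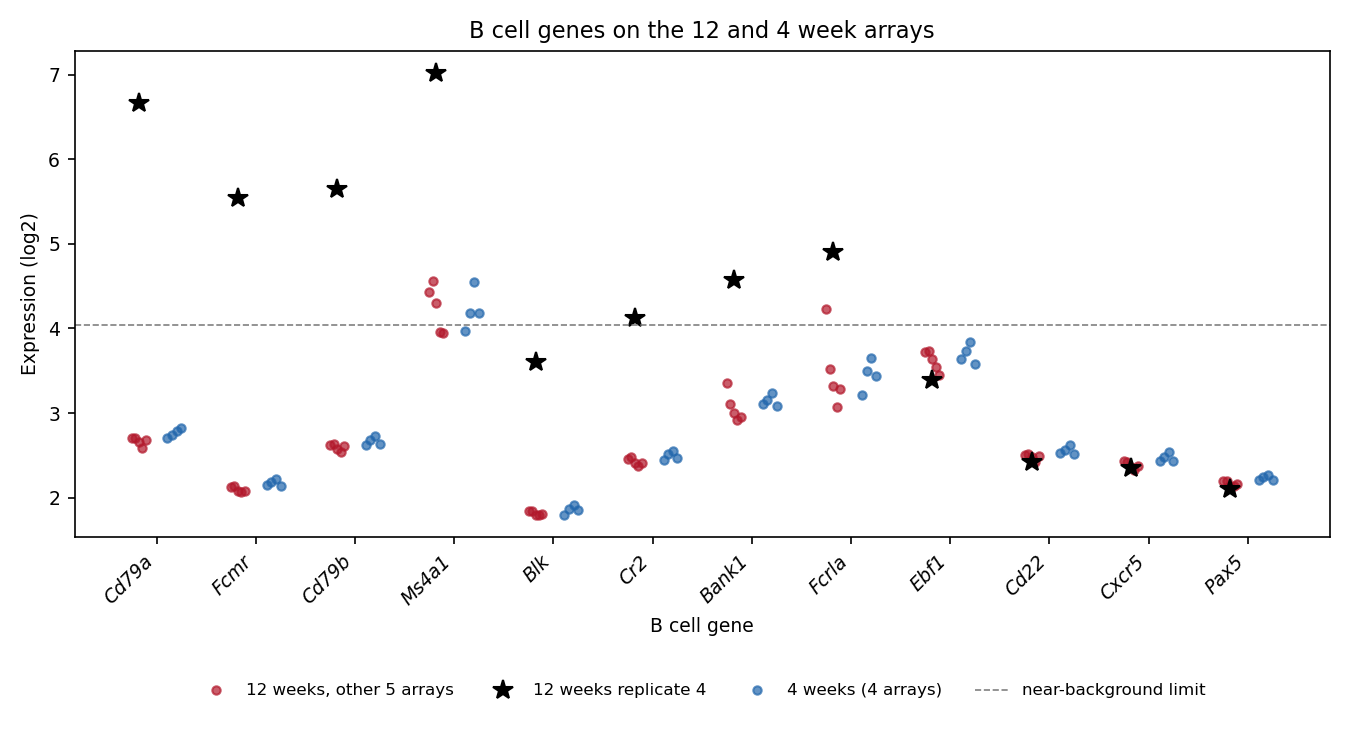
Expression (log2) of the 12 B cell genes with a probe set on each array, with the 12 week arrays (red, and a black star for replicate 4) left of the 4 week arrays (blue). The dashed line is the near-background limit of 4.04. Cd79a, Cd79b and Fcmr were between 5.54 and 6.67 on 12 weeks replicate 4 and at most 2.82 on the other 9 arrays.

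Secreted antibacterial and tear proteins rose in 6 of 13 cases and fell in none, with a median difference of 0.77 (0.32 after quantile normalization and 0.37 with array spread as a covariate). Lyz1, the lysozyme known in mice from Paneth cells, was between 11.56 and 12.92 (median 12.64) at 12 weeks, against 9.24, 8.04, 7.29 and 7.87 at 4 weeks. Lcn2, which binds bacterial siderophores, was between 7.91 and 9.13 (median 8.66) at 12 weeks, against 5.99, 3.43, 3.76 and 4.00 at 4 weeks. Ltf, the iron-binding lactoferrin, was between 12.87 and 13.85 (median 13.44) at 12 weeks, against 9.71, 11.38, 10.92 and 11.92 at 4 weeks. Each of these genes was higher on all 6 arrays at 12 weeks than on any array at 4 weeks, with 4 weeks replicate 1 nearest to 12 weeks for Lyz1 and Lcn2 and farthest for Ltf. Lyz1 rose by 4.38 ± 0.52 (20.8-fold, adjusted p = 3.07e-05), or by 2.95 as the mean of its 3 probe sets, since its probe set can also bind related transcripts. Lcn2 rose by 4.29 ± 0.70 (19.6-fold, 0.00129), Ltf by 2.44 ± 0.41 (5.42-fold, 0.00149) and the extracellular chaperone Clu by 2.43 ± 0.27 (5.39-fold, 1.38e-05). Pglyrp1, which binds bacterial cell wall, rose by 2.80 ± 0.64 (0.0191) and lost its call without 4 weeks replicate 2 (0.0907), 4 weeks replicate 3 (0.0963) or 12 weeks replicate 5 (0.0526). Lyz2, given above, completes the 6.

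The machinery of secretion itself showed few calls. Of 18 acinar genes 2 were higher, Ltf and Pigr, and the acinar median was 0.32 on the deposited values, -0.01 after quantile normalization and -0.19 with array spread as a covariate. The tear carbonic anhydrase Car6 averaged 14.25 ± 0.29 at 12 weeks and 13.94 ± 0.63 at 4 weeks (adjusted p = 0.554). The water channel Aqp5 averaged 11.29 ± 0.19 at 12 weeks and 10.41 ± 0.60 at 4 weeks (adjusted p = 0.498). No gene was called among 15 water channels and ion transporters, 5 of them near background at both ages. Of these the potassium channel Kcnn4 was 10.32 to 11.64 at 12 weeks and 11.06, 8.45, 8.41 and 8.50 at 4 weeks, so 4 weeks replicate 1, which had the highest salivary gland mean, lay within the 12 week range. The duct and luminal keratin Krt8 rose by 1.59 ± 0.35 (3.02-fold, adjusted p = 0.0156) and lost its call without 4 weeks replicate 2 (0.0657) or 3 (0.0888).

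Housekeeping groups moved with the scaling. Of 29 oxidative phosphorylation genes, 28 had positive differences on the deposited values, 15 after quantile normalization and 6 with array spread as a covariate, and none was called on the deposited values. For the 21 chaperones of the endoplasmic reticulum the counts of positive differences were 21, 12 and 9, and for 18 cytosolic ribosomal proteins 17, 9 and 4, again with no call on the deposited values. No direction is therefore given for these groups. Cell cycle and DNA replication genes had a median of 0.71 over 27 genes (0.48 after quantile normalization and 0.24 with array spread as a covariate) and no call, and Mki67, a marker of dividing cells, was in that list at 7.84 at 12 weeks and 6.59 at 4 weeks (adjusted p = 0.302). Of the 27, 9 were near background at both ages.

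Outside the immune and tear protein lists, the highest rises were those of Ly6f and of Cyp4a12a, and Cyp2j13 was another cytochrome P450 gene that rose. Ly6f, of the Ly6 family of lipid-anchored surface proteins, was between 11.67 and 12.21 (median 12.09) at 12 weeks, against 4.32, 4.05, 7.82 and 3.09 at 4 weeks. Cyp4a12a, a fatty acid omega-hydroxylase with a male-biased level in mouse kidney, was between 10.45 and 11.22 (median 10.93) at 12 weeks, against 4.52, 4.67, 4.78 and 4.25 at 4 weeks. Cyp2j13 was between 8.28 and 10.23 (median 9.47) at 12 weeks, against 5.48, 4.46, 8.04 and 2.94 at 4 weeks. The ages did not overlap, but 4 weeks replicate 3 stood well above its group for Ly6f and Cyp2j13 and not for Cyp4a12a.

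Ly6f rose by 7.17 ± 0.63 (144-fold, adjusted p = 2.35e-07), Cyp4a12a by 6.32 ± 0.48 (79.9-fold, 2.84e-08) and Cyp2j13 by 4.18 ± 0.69 (18.2-fold, 0.00145). These 3 kept their calls without any 1 array. Cyp27a1, which hydroxylates sterols in mitochondria, rose by 2.51 ± 0.63 (0.0319) and lost its call without any 1 of 7 arrays (up to 0.11). Cyp39a1, an oxysterol hydroxylase, fell by 2.54 ± 0.56 (0.0155) to a mean near background and lost its call without 4 weeks replicate 2 (0.082) or 4 (0.0631). The Cyp39a1 call was also lost with only the 10 arrays of both ages or with the replicate block. The other 13 of 17 P450 genes kept were not called, and the list's median was 0.05. Of the 17, 8 were near background at both ages, so a change in them could be missed. Cyp2b19, a P450 known in mouse from skin keratinocytes and not on that list, was among the lowest called. It was between 2.54 and 2.77 (median 2.64) at 12 weeks, against 3.05, 4.88, 3.33 and 6.18 at 4 weeks. It fell by at least 1.71 ± 0.35 (adjusted p = 0.00905) and lost its call with only the 10 arrays of both ages (0.0999) or without 4 weeks replicate 2 (0.0574). The abundant Cyp2f2 averaged 12.36 ± 0.22 at 12 weeks and 11.77 ± 0.52 at 4 weeks (adjusted p = 0.345), and Cyp2b10 averaged 11.80 ± 0.27 at 12 weeks and 11.74 ± 0.63 at 4 weeks (adjusted p = 0.93).

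Lipid genes shifted in a few members. Scd1, which puts the double bond into stearate, was between 11.67 and 12.77 (median 11.84) at 12 weeks, against 8.33, 8.40, 9.44 and 9.71 at 4 weeks. It rose by 3.03 ± 0.49 (8.15-fold, adjusted p = 0.00129), without overlap, as the only call among 18 genes of fatty acid synthesis (median 0.87, but 0.54 after quantile normalization and 0.53 with array spread as a covariate). The fatty acid synthase Fasn averaged 9.25 ± 1.13 at 12 weeks and 6.53 ± 0.92 at 4 weeks (2.72 ± 0.96, adjusted p = 0.122). Scd1 and Fasn were both highest on 12 weeks replicate 1 (12.77 and 11.15), the array with the highest adipocyte mean (6.82), and the part of fat in these values was not tested. Scd1 kept its call without that array. Apoe, a lipid carrier that macrophages also make, was between 8.66 and 9.81 (median 9.57) at 12 weeks, against 4.88, 6.11, 3.50 and 6.40 at 4 weeks (4.20 ± 0.88, adjusted p = 0.0105), and lost its call without 4 weeks replicate 3 (3.62, 0.0719). The Apoe call was also lost with the salivary and adipocyte means as covariates. In cholesterol synthesis Pmvk was higher by at least 1.89 ± 0.47 (0.0296, lost without any 1 of 6 arrays, up to 0.103) and Fdft1 lower, and the median of 15 genes was 0.29, 0.09 after quantile normalization and -0.28 with array spread as a covariate.

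Other strong rises were Pgf, placental growth factor, by at least 4.81 ± 0.72 (28.1-fold, adjusted p = 0.000718), and Bok, a pore-forming member of the Bcl2 family, by at least 4.10 ± 0.64 (17.2-fold, 0.00104). Pgf was between 6.90 and 9.30 (median 7.38) at 12 weeks, against 3.05, 3.05, 3.04 and 3.05 at 4 weeks. Bok was between 5.66 and 7.22 (median 6.38) at 12 weeks, against 2.24, 2.27, 2.27 and 2.25 at 4 weeks. For both, the 4 week values were flat near background, and every 12 week array was above them. Sbsn, suprabasin, a secreted protein of keratinised epithelium, rose by 3.02 ± 0.53 (8.09-fold, 0.00295), the only call among 5 skin genes (median -0.12). Of 19 glycosyltransferases 3 rose (2.16% over all genes) and none fell (median 0.08, but -0.05 after quantile normalization). Of the 19, 6 were near background at both ages, so a change in them could be missed. Fut8, which adds the core fucose of N-glycans, rose by 2.46 ± 0.41 (0.00145), and the fucosyltransferase Fut4 by at least 2.81 ± 0.72 (0.0358). As the mean of its 3 probe sets Fut8 rose by 0.56 and was not called (adjusted p = 0.0839). The sialyltransferase St6galnac2 rose by 1.84 ± 0.42 (0.0191). Fut4 lost its call without any 1 of 8 arrays (up to 0.0979) and St6galnac2 without 4 weeks replicate 2 (0.0657), 4 weeks replicate 4 (0.0585) or 12 weeks replicate 5 (0.0527).

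The lower genes were led by a gene model with no descriptive name. 5530400C23Rik, on chromosome 6, was between 2.53 and 3.03 (median 2.78) at 12 weeks, against 11.92, 12.07, 10.12 and 14.05 at 4 weeks. It was thus far above the array median on every 4 week array, lowest on replicate 3, and near background on every 12 week array. The fall was at least 9.24 ± 0.39 on the log2 scale (603-fold higher at 4 weeks, adjusted p = 2.23e-13), and it kept its call under all 25 alternatives.

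The rest of the lower genes moved far less, with 6 of the 68 reaching 4-fold. Timp3, an inhibitor of matrix metalloproteinases, was between 2.75 and 3.91 (median 3.35) at 12 weeks, against 5.60, 5.97, 4.74 and 6.21 at 4 weeks. Arg2, the mitochondrial arginase, was between 4.32 and 5.94 (median 5.12) at 12 weeks, against 6.24, 7.62, 7.13 and 7.31 at 4 weeks. Slc16a12, a creatine transporter, was between 3.99 and 4.66 (median 4.34) at 12 weeks, against 6.00, 6.47, 6.13 and 6.38 at 4 weeks. The groups did not overlap, and the gap between them was narrow for Arg2 and wide for Slc16a12. Timp3 fell by at least 2.32 ± 0.37 (adjusted p = 0.0011), Arg2 fell by 2.01 ± 0.40 (0.00731) and Slc16a12 fell by 1.90 ± 0.15 (4.73e-08). Fdft1, which makes squalene, fell by at least 1.89 ± 0.35 (0.00496), with 12 week values of 3.64 to 4.26 against 5.88, 6.92, 4.39 and 6.36 at 4 weeks. These 4 kept their calls without any 1 array. As the mean of all their probe sets the differences were -1.37 for Timp3 (4 probe sets), -1.40 for Arg2 (2) and -0.92 for Fdft1 (4), each still called.

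Genes of the imprinted growth network that is shut down as juvenile organs slow their growth were lower in 2 of 10 cases and higher in none, with a median of -0.11. Over all genes, 0.549% were lower. Plagl1, a zinc finger factor of that network, was between 3.15 and 5.42 (median 4.39) at 12 weeks, against 7.49, 6.91, 6.03 and 6.65 at 4 weeks, and fell by 2.40 ± 0.41 (adjusted p = 0.00218). Without probe sets that can bind related transcripts the difference was -0.13 (adjusted p = 0.239). Ndn, necdin, fell by 1.00 ± 0.22 (0.0136), lost its call without 4 weeks replicate 3 (0.0511), and without such probe sets was at -0.63 (0.373).

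Collagens were lower in 1 of 15 cases, Col1a1 (0.549% over all genes), and had a median of -0.35 (-0.80 after quantile normalization). The list mean was 4.96 to 5.40 on the 12 week arrays, and 6.63, 5.58, 5.31 and 5.17 on 4 weeks replicates 1 to 4. Replicate 1 thus stood above its group, and the difference of the list mean was -0.50 with it and -0.18 without it. Col1a1 averaged 4.97 ± 0.37 at 12 weeks and 6.02 ± 0.57 at 4 weeks (-1.05 ± 0.22, adjusted p = 0.00919), with groups that overlapped. The call was lost with only the 10 arrays of both ages (adjusted p = 0.0626), and averaging its probe sets gave a difference of -1.63. Col1a2 averaged 6.94 ± 0.37 at 12 weeks and 7.95 ± 0.56 at 4 weeks (-1.01 ± 0.37, adjusted p = 0.131), and 13 of the 15 collagens had negative differences (12 after quantile normalization, 11 with arrays centred on their medians and 10 without 4 weeks replicate 1). Among 17 matrix genes, fibronectin Fn1 (1.41 ± 0.37, adjusted p = 0.042) and the protease Mmp3 (2.16 ± 0.51, at least, 0.0244) rose and Timp3 fell. Both rises were lost without any of several single arrays (up to 0.141 and 0.0888). Usp2, a deubiquitinase whose level follows the circadian clock, fell by 2.67 ± 0.71 (adjusted p = 0.0455) but lost its call without any of 9 single arrays (up to 0.108). Its 12 week values were 3.06, 4.44, 6.50, 5.86, 5.99 and 5.81 on replicates 1 to 6. No clock gene of 15 was called, 6 of them near background at both ages. The clock output Dbp was 4.26 to 9.02 at 12 weeks against 10.56, 8.57, 8.22 and 9.01 at 4 weeks (-2.51 ± 0.80, adjusted p = 0.0887). Hours of dissection were not given in the sources used here.

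**Figure D4:**
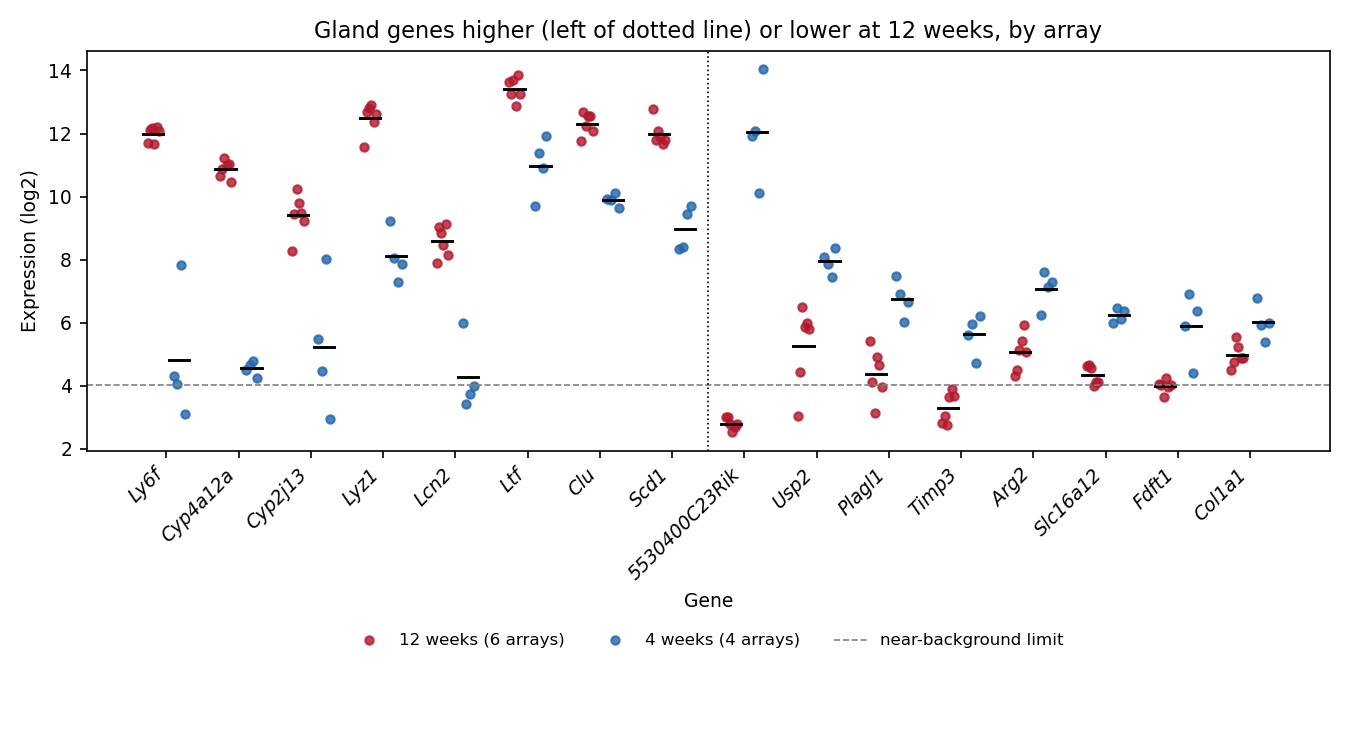
Expression (log2) of 16 gland genes on each array, with 12 weeks (red, 6 arrays) left of 4 weeks (blue, 4 arrays) and a black line at each mean. The 8 genes left of the dotted line were higher at 12 weeks and the 8 to its right lower. 5530400C23Rik was at 10.12 to 14.05 at 4 weeks and at 2.53 to 3.03 at 12 weeks, below the near-background limit (dashed, 4.04).

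Arrays of 8 weeks place part of these differences in time. Between 12 and 8 weeks 2 genes (0.0162%) changed, by limma at an adjusted p under 0.05, with 614 at an unadjusted p under 0.05, and none of the 335 was among them. Between 8 and 4 weeks 168 genes (1.36%) changed. For Ly6f the differences were 7.05 ± 0.63 from 8 minus 4 weeks and 0.12 ± 0.56 from 12 minus 8 weeks. For Cyp4a12a they were 6.88 ± 0.48 and -0.56 ± 0.43, and for C1qa 3.93 and -0.45. IgA genes were at intermediate levels at 8 weeks. Igha averaged 6.23, 9.41 and 11.60 at 4, 8 and 12 weeks, with differences of 3.18 (adjusted p = 0.0067) and 2.19 (8 minus 4 and 12 minus 8 weeks, the second not called). Jchain averaged 3.55, 5.57 and 8.05, with differences of 2.02 (adjusted p = 0.14) and 2.48, neither called. Timp3 averaged 5.63, 4.74 and 3.31, with differences of -0.89 (adjusted p = 0.27) and -1.43, neither called. The contrasts share arrays, so they are not independent, and whether the early and the late step differed in size was not tested.

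**Figure D5:**
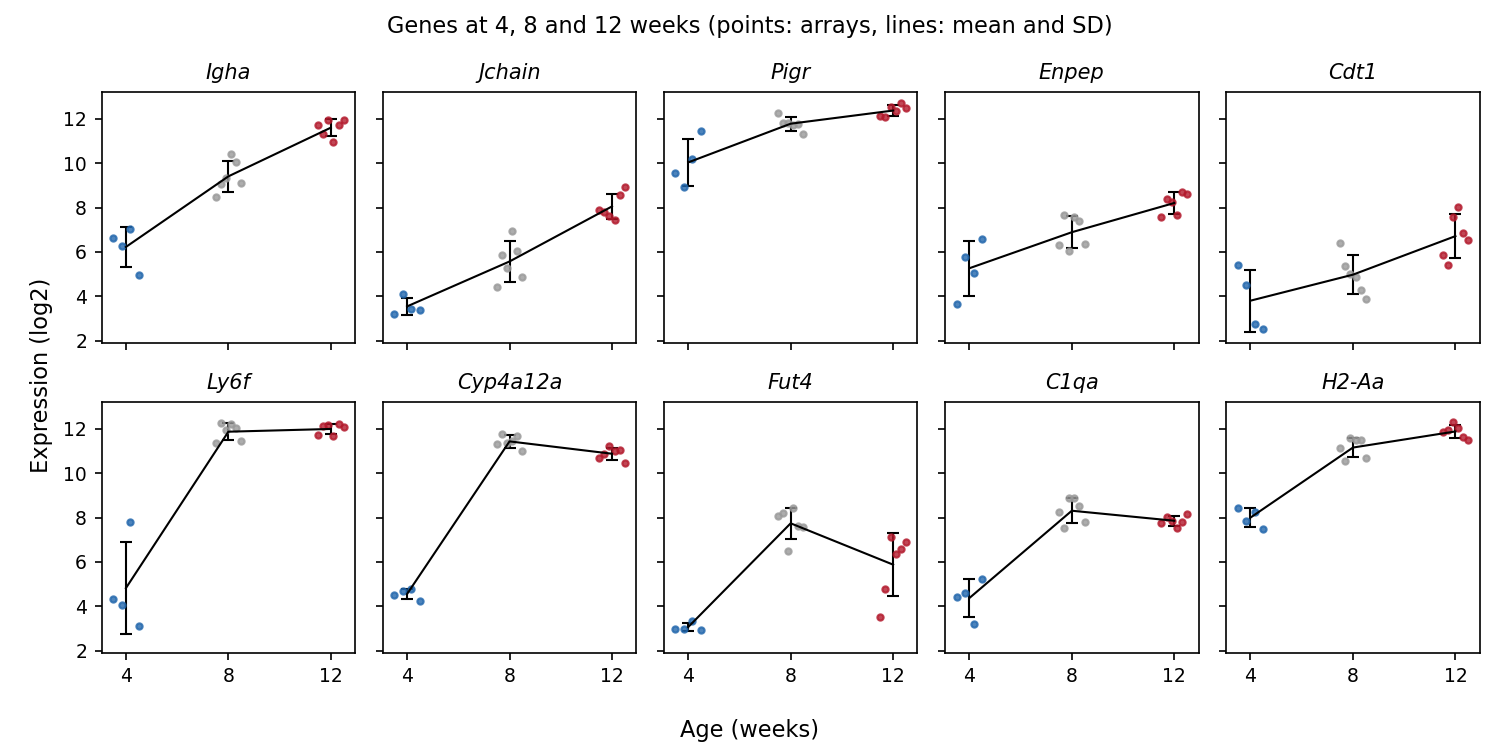
Expression (log2) at 4, 8 and 12 weeks for 10 genes that were higher at 12 than at 4 weeks. Points are arrays (4, 6 and 6) and lines join the means with SD. Ly6f and Cyp4a12a averaged 11.87 and 11.43 at 8 weeks and 11.99 and 10.87 at 12 weeks, while Igha and Jchain averaged 9.41 and 5.57 at 8 weeks and 11.60 and 8.05 at 12 weeks.

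Of the candidate genes listed for the strain's NOD regions and for Sjögren's syndrome, those named here were not called. Other genes on the same chromosomes were not examined as a group. Il21, Icos and the muscarinic receptor gene Chrm3 were below the filter. On the list of Idd3 and Idd5 candidates none of 10 genes was called (median -0.07), and 6 of the 10 were near background at both ages. The T cell growth factor Il2, of the Idd3 region, averaged 3.32 ± 0.13 at 12 weeks and 3.49 ± 0.08 at 4 weeks (adjusted p = 0.276). Ctla4, of the Idd5 region, averaged 3.23 ± 0.09 at 12 weeks and 3.35 ± 0.06 at 4 weeks (0.279), and Slc11a1 averaged 3.02 ± 0.15 at 12 weeks and 2.95 ± 0.08 at 4 weeks (0.628). All 3 were near background at both ages, so a change in a few cells was not detectable. The autoantigen Trim21 (Ro52), also near background at both ages, averaged 3.31 ± 0.51 at 12 weeks and 3.05 ± 0.21 at 4 weeks (0.469). Ssb (La) averaged 7.94 ± 0.74 at 12 weeks and 7.41 ± 0.76 at 4 weeks (0.421). The B cell survival factor Tnfsf13b, near background at both ages as well, averaged 3.60 ± 0.15 at 12 weeks and 3.76 ± 0.04 at 4 weeks (adjusted p = 0.3).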

How the data were processed

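Per the submitters' processing notes, RMA and GCRMA were used, but neither version nor role is stated, so the sources used here do not show how the deposited log2 values were made. The table holds 45101 probe sets on 26 Affymetrix arrays and was used as deposited. The platform's annotation gave 1 gene symbol for 34958 probe sets, several for 932 and none for 9211, and the last 2 kinds were left out. Genes above the array median on 4 or more arrays were kept (12377 of 18194). limma 3.58.1 in R 4.3.3 (lmFit, eBayes) fitted a mean per age over all 26 arrays, with contrasts of 12 minus 4, 12 minus 8 and 8 minus 4 weeks, two-sided, adjusted by Benjamini-Hochberg at 0.05. SE is that of the fit, and folds are powers of 2 of the difference.

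The 52 gene lists held 949 genes, 844 with a probe set and 664 kept. The lists and the comparison were chosen with earlier results of these data known. Genes named were taken from the 15 highest and 15 lowest called, the 10 with the smallest p, list members and the study's candidates, and not all of them are described. B cell and plasma cell genes below the filter, and the genes so marked in the closing section, were chosen after their values were seen. The code of the fit was tried on simulated data with independent noise of equal spread on every array. The arrays here were not alike in that way, so that trial does not bear on the calls. The main fit treated samples as unpaired. Correlations of samples with the same replicate number were -0.17, -0.04, -0.17 and 0.22. Samples of unlike number were not set beside them, so these values cannot show whether replicate numbers pair samples. The number of arrays limits the precision.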

Additional observations from a re-analysis of the deposited data

Results flagged for a closer look

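Among the genes named and the array measures, 15 of 248 groups held an array far from the others of its age, with 12.4 expected by chance at 1 in 20. On 12 weeks replicate 4, the array with the B cell genes, Ms4a1 (7.02), Cxcl13 (6.77), H2-DMb2 (4.87) and H2-DMa (4.00) stood above the other arrays of that age. On 12 weeks replicate 1, with the highest adipocyte mean, Fut8 (6.77) and Aqp5 (10.92) stood below. Aif1, a macrophage protein, was high on 12 weeks replicate 6 (5.78), and Trim21 was low on 12 weeks replicate 2 (2.37). At 4 weeks, Kcnn4 (11.06) and Srgn (6.34) were high on replicate 1, which had the highest salivary gland mean. On 4 weeks replicate 3, Lyz2 (5.73) was low and Fut4 (3.36), H2-DMb2 (4.42) and Cd8a (3.48) were above the next highest 4 week values of 2.99, 4.16 and 3.42. That array had the highest median of the 10 (3.15), and its Fut4 and Cd8a values were under the near-background limit. The H2-DMa and Trim21 values given above were under that limit too. Fcgbp was high on 4 weeks replicate 4 (6.29).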

How the results depend on the processing

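Against 335 genes called between 12 and 4 weeks (267 higher and 68 lower), the count was 5373 with array weights (3429 and 1944; the estimate of the weights did not converge), 1493 without the pair of later arrays that stood apart (1221 and 272), 172 with the replicate number as a block (133 and 39) and 158 with salivary and adipocyte means as covariates (126 and 32). With quantile normalization 165 were higher, with only the 10 arrays 451 were higher and 44 lower, and with array spread as a covariate 150 were higher and 130 lower. Of the 335 calls, 198 were kept with quantile normalization, 210 with only the 10 arrays and 178 with array spread. A 2-fold minimum left 31 lower. Without 1 array the total ran from 123 (without 4 weeks replicate 2) to 709 (without 12 weeks replicate 1), with 97 to 579 higher and 25 to 130 lower, and it moved by over 1.5 times without every array but 12 weeks replicate 2 (469). Higher genes were 79.7% of calls, but 64.2% with quantile normalization, 53.6% with array spread, 63.8% with array weights, 91.1% with only the 10 arrays and 67.8% without 4 weeks replicate 4. Quantile normalization moved the median difference of all genes from 0.09 to -0.03, and array spread moved it to -0.02. The cause of these moves was not tested.

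Between 12 and 8 weeks, 2 genes were called, against 8 with quantile normalization, 1 with arrays centred on their medians, the stricter filter, a 2-fold minimum or the replicate block, and 10 with the mean of probe sets. The count was 4 without _x_at and _s_at probe sets, 142 with array weights, 8 without the arrays that stood apart, 21 with array spread, 0 with either actin or the tissue means as covariates (577 and 544 at an unadjusted p under 0.05), and 1 to 7 without 1 array. The difference in array spread (0.199) was 0.140 to 0.239 without 1 array, with p up to 0.107, and the actin difference (0.80) was 0.46 to 1.20 without 1 array, the highest without 4 weeks replicate 1 (exact permutation p = 0.0119). Of 3005 values of the 121 named genes under the 25 alternatives, 2706 kept their call or lack of one, 230 lost it, 68 gained it and 1 reversed, Laptm5 (-0.75 without _x_at and _s_at probe sets). Without such probe sets Cotl1 was at 0.85 and Zg16 at -0.08. Losses given gene by gene are mainly those without 1 array, and other settings removed calls too. With the tissue means as covariates, Apoe, Tyrobp, Krt8, Pglyrp1, St6galnac2 and Lgals3 were among the genes that lost their calls.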

Other observations

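Several called genes outside the lists, other than Fgl2, were chosen here after their values were seen. Cd52, a surface peptide of lymphocytes and macrophages, was between 5.73 and 9.44 (median 6.96) at 12 weeks, highest on replicate 4, against 4.14, 3.28, 3.80 and 3.10 at 4 weeks. It rose by at least 3.54 ± 0.71 (limma adjusted p = 0.00816). Fgl2, a prothrombinase of macrophages and T cells, rose by 3.64 ± 0.50 (12.5-fold, 0.000253). Retnla, a mark of alternatively activated macrophages in mice, was between 5.53 and 6.92 (median 6.75) at 12 weeks, against 3.77, 2.69, 2.91 and 2.83 at 4 weeks. Its rise was at least 3.46 ± 0.60 (0.00233). Srgn, a proteoglycan of leukocyte granules, rose by 2.57 ± 0.52 (0.00882), and Clec7a, the beta-glucan receptor dectin-1, rose by 1.78 ± 0.39 (0.0155) and lost its call without 4 weeks replicate 2 (0.0657). Galectin-3, Lgals3, rose by 2.78 ± 0.65 (0.0232) and lost its call without 4 weeks replicate 2 (0.11), 3 (0.078) or 4 (0.0647).

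A pair of surface peptidases also rose. Fap, the fibroblast activation protein, was between 6.55 and 7.85 (median 7.25) at 12 weeks, against 4.72, 3.01, 3.49 and 2.35 at 4 weeks. It rose by at least 3.81 ± 0.60 (0.00104), while collagens, another fibroblast product, had a median of -0.35. Enpep, glutamyl aminopeptidase, rose by 2.94 ± 0.60 (0.00914), with 7.56 to 8.70 at 12 weeks against 3.67, 5.77, 5.05 and 6.58 at 4 weeks. Mrap, an accessory protein of melanocortin receptors, was between 8.67 and 10.13 (median 9.11) at 12 weeks, against 6.31, 6.01, 8.93 and 3.25 at 4 weeks (3.12 ± 0.77, 0.0297). The 8.93 of 4 weeks replicate 3 lay within the 12 week range, on the array that also stood above its age for Ly6f (7.82) and Cyp2j13 (8.04) and had the lowest 5530400C23Rik (10.12), and Mrap lost its call without any 1 of 6 arrays (up to 0.108). Tk1 and Cdt1, which serve DNA replication, rose by at least 1.55 ± 0.34 (0.0137) and 2.91 ± 0.66 (0.0174), and both lost their calls without 4 weeks replicate 3 (0.0685 and 0.0945) and 1 other array.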
